A study of Mus musculus with 12 samples.

Results

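Epithelial to mesenchymal transition (EMT) genes were followed in wild-type (WT) and *Meteor* KO mouse embryonic stem cells (ESCs) as they left pluripotency. The 10 genes were named by symbol, with earlier results of these data known. Each was matched to 1 Ensembl identifier among the 46517 genes listed in the count files. They are the cadherins *Cdh1*, *Cdh2* and *Cdh11*, the epithelial adhesion gene *Epcam*, the intermediate filament gene *Vim*, and the transcription factor genes *Snai1*, *Snai2*, *Zeb1*, *Zeb2* and *Twist1*. All 10 exceeded 1 CPM (counts divided by the TMM-adjusted depth of their library) in at least 1 sample and were among the 15673 genes tested.

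During EMT, cells of an epithelial sheet loosen their junctions, lose apical and basal polarity and become migratory. The gastrulating embryo uses this step at the primitive streak, where epiblast cells detach and move inwards as mesoderm and endoderm. In the classical cadherin switch, E-cadherin (*Cdh1*) gives way to N-cadherin (*Cdh2*), while Snail, Zeb and Twist family factors are known to bind E-box motifs and to repress epithelial genes such as *Cdh1*. ESCs themselves express E-cadherin and hold together as compact colonies.

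The data are RNA-seq read counts of polyadenylated transcripts in 12 samples, with 3 samples in each of 4 groups. WT and KO cells both carry an EGFP cassette at *Eomes* (*Eomes* EGFP reporter line, labelled strain background C57BL/6) and were grown on mouse embryonic fibroblast feeders. KO cells additionally lack the *Meteor* enhancer, which includes the start of the *Meteor* long noncoding RNA, after editing with a Cas9 nickase. Day 0 samples were undifferentiated ESCs, and day 3 samples were embryoid bodies formed in hanging drops under a cardiac differentiation protocol. KO cells descend from single picked clones, and the labels do not say which clone gave which sample or whether replicates are separate cultures. P-values therefore measure the spread between these samples, part of which may be technical.

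The libraries held 17455927 to 23910943 counts on genes. The annotated *Meteor* transcript ENSMUSG00000103968 had 1.35 to 5.84 CPM in the 6 WT samples and no count in the 6 KO samples. *Upf3b*, a gene of nonsense-mediated decay that is not an EMT gene, ranged from 45.4 to 55.8 CPM in WT and from 0 to 0.661 CPM in KO, so the KO cells differ from WT in more than the *Meteor* transcript. Some libraries stood apart from their group. WT replicate 3 at day 3 had the largest sum of 22 mesenchymal effector genes, 4485 CPM against 2162 and 2258 in the other WT samples of that day, and also the largest sum of 13 primitive and visceral endoderm markers, 567 against 214 and 230.0 CPM. WT replicate 3 at day 0 held 77.3 CPM of the primitive streak gene *T*, against 4.64 and 6.41 CPM in the other replicates.

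Fibroblast markers were measured beside the 10 genes because the ESCs were grown on feeders and fibroblasts are known to express *Vim*, *Cdh11*, *Zeb1* and *Twist1*. The summed level of 20 fibroblast markers was 269.8, 553 and 406 CPM in WT replicates 1 to 3 at day 0 and 344, 749 and 549.5 CPM in KO replicates 1 to 3. It was lower at day 3, at 124, 134 and 235 CPM in WT and 88.4, 144 and 148 CPM in KO. None of the 20 was at 0 throughout a group, but the fibroblast genes *Lum*, *Fap*, *Meox2* and *Tcf21* stayed at or below 0.385 CPM in every sample. The defining collagen gene *Col1a1* was present in every sample, at 30.1 to 149 CPM at day 0 and 4.45 to 15.4 CPM at day 3. Of 16 fibroblast markers tested, none was called between KO and WT at day 0 in the fit used here or by DESeq2, although 4 and 6 had an unadjusted p-value under 0.05. Fitting only the 6 samples of day 0 called 11 of the 16, all of them higher in KO, in a fit that called 36.7% of all genes it tested. In bulk RNA, fewer cells of a type and less RNA per cell cannot be told apart, and the part of the fibroblast RNA in the results at day 0 was not tested.

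Genes were compared with edgeR's quasi-likelihood test on all 12 samples, with the replicate number as a block. A gene was called at a Benjamini-Hochberg adjusted p-value below 0.05, with the adjustment made across the 15673 genes. Each log2 fold change stands beside its standard error (SE), and group values are mean CPM ± SD with n = 3. At day 0, 3 of the 10 EMT genes were called between KO and WT, all lower in KO (*Cdh1*, *Cdh2* and *Epcam*), where 20.4% of all tested genes were called, 9.56% higher and 10.9% lower. At day 3, 8 of the 10 were called, 1 higher in KO (*Cdh1*) and 7 lower, against 30.9% of all tested genes, 14.3% higher and 16.7% lower. The median log2 fold change of the 10 genes was -0.05 at day 0 and -1.92 at day 3, where all tested genes had medians of -0.01 and 0.00.

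From day 0 to day 3, 7 of the 10 genes were called in WT, 5 rising and 2 falling, against 56.2% of all tested genes (30.7% higher and 25.5% lower). In KO 8 were called, 3 rising and 5 falling, against 56.6% (29.4% higher and 27.2% lower). A share of 7 or 8 in 10 is thus not far above the background of the time comparisons. The effect of the genotype differed between the days for 7 of the 10 genes, by the interaction term of the same fit. That term was higher for *Cdh1* and *Epcam* and lower for *Cdh11*, *Vim*, *Snai1*, *Zeb1* and *Twist1*, against 15.5% of all tested genes (8.21% higher and 7.34% lower). The comparisons share groups, so their counts are not independent of each other. Leaving out single libraries moved some of these counts by more than 1.5 times. The day 0 count was 5 without WT day 3 replicate 3, the WT time count was 4 without WT day 3 replicate 2, and the interaction count was 4 without KO day 0 replicate 2 or without KO day 3 replicate 2.

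**Figure D1:**
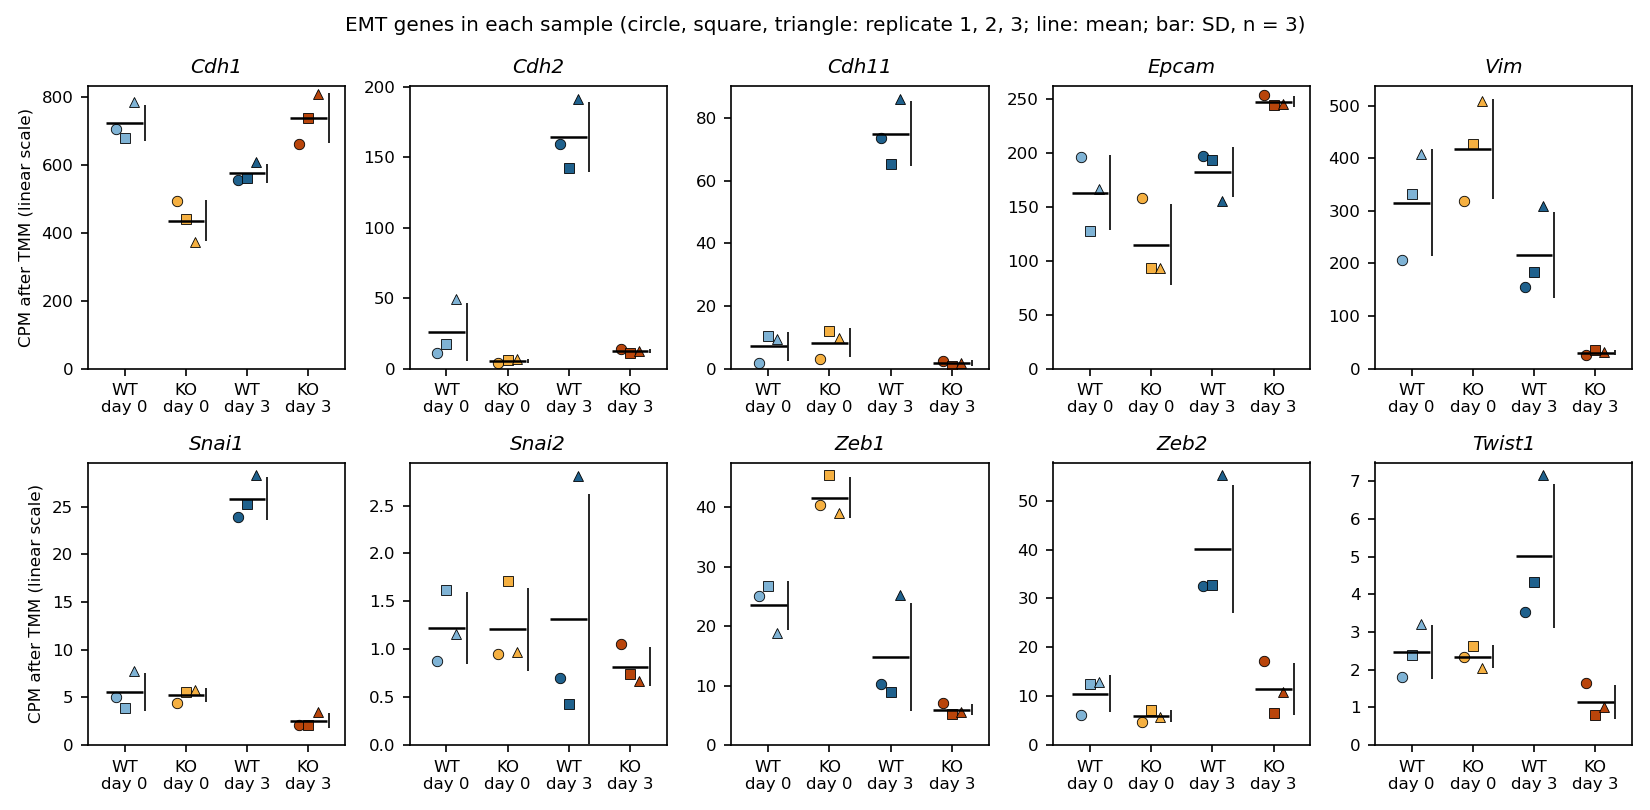
Level of each of the 10 EMT genes in the 12 samples, in CPM after TMM scaling on linear axes that start at 0, with 1 panel per gene and 1 column per group. Points are single samples, horizontal lines are means and vertical bars are SD (n = 3). *Cdh2*, *Cdh11* and *Snai1* were high only in the WT samples of day 3, whereas *Vim* and *Zeb1* were at their lowest in the KO samples of day 3.

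**Figure D2:**
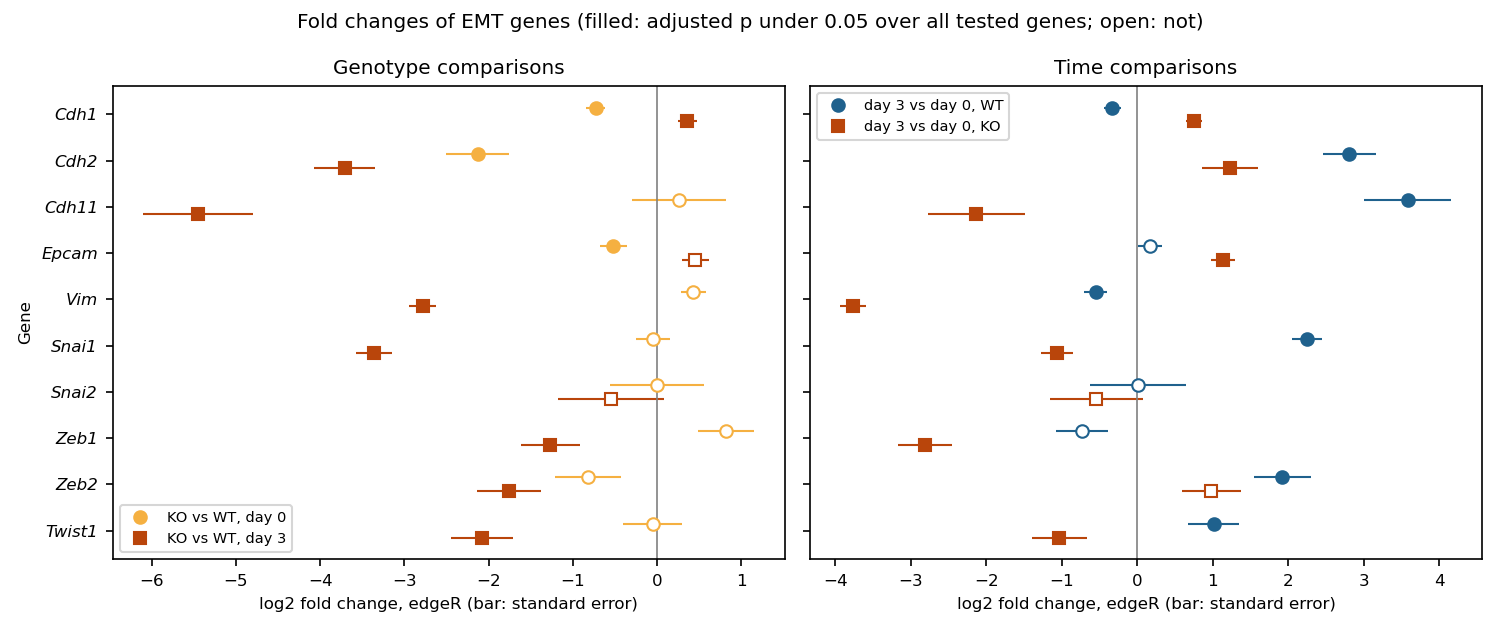
Log2 fold changes of the 10 EMT genes with standard errors, for KO against WT at each day (left) and for day 3 against day 0 in each genotype (right). Filled symbols passed an adjusted p-value of 0.05 over all tested genes and open symbols did not. *Cdh11* had the largest difference between genotypes, -5.45 at day 3, and *Cdh1* lay below 0 at day 0 and above 0 at day 3.

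The epithelial genes come first. *Cdh1* encodes E-cadherin, the calcium-dependent adhesion molecule of adherens junctions (ENSMUSG00000000303, chr8:106603351-106670246 on GRCm38, plus strand). By group means per exon length it was the most abundant of the 10 genes in each of the 4 groups, with a level of 158 CPM per kilobase of exon in WT at day 0. Its level was 705, 679.9 and 784 CPM in the WT replicates of day 0 and 493, 440.2 and 374 CPM in the KO replicates. The groups were separate, and each KO sample was below the WT sample of the same number. *Cdh1* was 1.66-fold lower in KO ESCs, a log2 fold change of -0.73 (SE 0.11, adjusted p = 0.00216 in edgeR).

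At day 3 the order of the genotypes was turned around. *Cdh1* reached 555, 562 and 607 CPM in WT and 662, 739 and 809 CPM in KO, again without overlap. This was a log2 fold change of 0.36 (SE 0.11, adjusted p = 0.036 in edgeR). This call was lost in 5 of the 12 fits that each left out 1 library, namely KO replicate 2 or 3 or any WT replicate of day 3, with adjusted p-values in edgeR of 0.0525 to 0.114 and log2 fold changes of 0.32 to 0.42. With every library kept, it held under a replicate block within each day (adjusted p = 0.0133 in edgeR) and without the replicate block (adjusted p = 0.0317 in edgeR). DESeq2 also called it (adjusted p = 0.0121). In WT, *Cdh1* fell by 0.33 on the log2 scale over 3 days (SE 0.11, adjusted p = 0.0293 in edgeR), a call that was lost without WT day 0 replicate 1 or 3 or WT day 3 replicate 1 or 2 (adjusted p between 0.0518 and 0.117 in edgeR). In KO it rose by 0.75 (SE 0.11, adjusted p = 0.000306 in edgeR). The difference between the genotype effects was 1.08 (SE 0.16, adjusted p = 0.00253 in edgeR) and was called in all 12 fits with 1 library left out. KO ESCs thus had the least *Cdh1* of the 4 groups, and the KO samples of day 3 overlapped the WT samples of day 0.

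*Epcam* encodes an epithelial cell adhesion molecule that is also abundant in ESCs (ENSMUSG00000045394, chr17:87635979-87651129, plus strand). Its level was 196, 127 and 166 CPM in WT and 158, 93.6 and 93.0 CPM in KO at day 0. The groups overlapped, since KO replicate 1 lay above WT replicate 2, but each KO sample was below its WT counterpart of the same number. KO differed from WT by a log2 fold change of -0.52 (SE 0.16, adjusted p = 0.0427 in edgeR). It was not called without the replicate block (adjusted p = 0.113 in edgeR), nor without any of 6 single libraries (KO day 0 replicate 2 or 3, KO day 3 replicate 2 or 3, WT day 0 replicate 1 or 3), where the adjusted p was 0.057 to 0.177 in edgeR. It was called with a replicate block within each day (adjusted p = 0.00381 in edgeR) and in a fit of the 6 samples of day 0 (adjusted p = 0.00307 in edgeR). DESeq2 also called it (adjusted p = 0.0175).

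At day 3 *Epcam* stood at 197, 193 and 155 CPM in WT and 253, 244 and 245 CPM in KO, and the groups did not overlap. A log2 fold change of 0.45 missed the threshold (SE 0.16, adjusted p = 0.0533 in edgeR), while a replicate block within each day gave an adjusted p of 0.00543 in edgeR, and limma-voom and DESeq2 also called it. *Epcam* rose by 1.14 in KO over 3 days (SE 0.16, adjusted p = 0.000192 in edgeR), and its log2 fold change in WT was 0.17 (SE 0.16, adjusted p = 0.375 in edgeR). The interaction was 0.97 (SE 0.22, adjusted p = 0.0171 in edgeR). It was not called without KO day 0 replicate 2 or KO day 3 replicate 2, at an adjusted p of 0.0554 and 0.0553 in edgeR. *Epcam* and *Cdh1* therefore had the same order of KO and WT at both days, lower in KO at day 0 and with a higher mean in KO at day 3.

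RefSeq promoter windows (GRCm38.p6) were at hand for 5 of the 10 genes, *Epcam*, *Vim*, *Snai1*, *Twist1* and *Zeb2*, the last with 4 windows. The 250 bases before each annotated start were searched on both strands for the E-box CACCTG (reverse complement CAGGTG), which Snail and Zeb zinc fingers are known to bind. It was found in 17.2% of all 32851 windows of this length. Of these 5 genes, *Snai1* and *Epcam* had matches, and their windows are shown because *Epcam* is an epithelial gene and *Snai1* a Snail gene whose KO and WT levels differed by day. Both are on the plus strand, read 5′ to 3′ towards the start, with the matches in capitals.
Epcam, chr17:87635729-87635978: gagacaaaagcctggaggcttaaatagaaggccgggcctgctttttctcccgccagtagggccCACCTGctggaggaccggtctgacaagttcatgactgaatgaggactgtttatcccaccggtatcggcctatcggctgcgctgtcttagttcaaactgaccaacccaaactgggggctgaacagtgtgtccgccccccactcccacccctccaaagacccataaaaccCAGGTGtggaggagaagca
Snai1, chr2:167537945-167538194: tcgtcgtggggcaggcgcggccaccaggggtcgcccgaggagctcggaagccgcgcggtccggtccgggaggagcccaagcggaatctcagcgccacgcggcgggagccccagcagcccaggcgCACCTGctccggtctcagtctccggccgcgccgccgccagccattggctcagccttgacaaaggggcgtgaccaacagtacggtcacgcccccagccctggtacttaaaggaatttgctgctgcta
In *Epcam* the matches began 187 and 19 bases before the start, and in *Snai1* the match began 126 bases before it. These are matches of letters and not measured binding sites.

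*Cdh2* encodes N-cadherin, the cadherin that nascent mesoderm and neural tissue carry (ENSMUSG00000024304, chromosome 18). It was measured at 159, 142 and 191 CPM in WT at day 3 and at 13.7, 11 and 12.4 CPM in KO. Every WT sample was more than 10 times above every KO sample, and the log2 fold change was -3.71 (SE 0.36, adjusted p = 0.00014 in edgeR). At day 0, *Cdh2* was 11.3, 17.6 and 49.5 CPM in WT and 3.86, 5.84 and 6.58 CPM in KO. The groups did not overlap at day 0 either, and the log2 fold change was -2.13 (SE 0.37, adjusted p = 0.00367 in edgeR). WT replicate 3, which also held the most *T*, had the highest value, and without it the log2 fold change was -1.50 (adjusted p = 0.0061 in edgeR).

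*Cdh2* rose in both genotypes from day 0 to day 3. The log2 fold change was 2.81 in WT (SE 0.35, adjusted p = 0.000123 in edgeR), or 3.42 without WT day 0 replicate 3, and 1.23 in KO (SE 0.37, adjusted p = 0.0168 in edgeR). The rise in KO lost its call without KO day 0 replicate 1 or 3 or KO day 3 replicate 1, where the adjusted p was 0.0629 to 0.0752 in edgeR. The interaction of -1.58 missed the threshold (SE 0.50, adjusted p = 0.058 in edgeR), and it was -2.22 without WT day 0 replicate 3 (adjusted p = 0.00446 in edgeR). With a replicate block within each day it was -1.62 (adjusted p = 0.00468 in edgeR). KO cells at day 3 stayed near the lower WT samples of day 0, with 11 to 13.7 CPM against 11.3 and 17.6 CPM.

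The cadherin ratio joined both genes within each library. The log2 of *Cdh2* over *Cdh1* counts was -5.96, -5.27 and -3.99 in WT and -6.99, -6.24 and -5.83 in KO at day 0. At day 3 it was -1.81, -1.98 and -1.67 in WT and -5.60, -6.07 and -6.03 in KO. The WT samples of day 3 were separated from all other samples, and the KO samples of day 3 lay within the range of the WT and KO samples of day 0. E-cadherin counts exceeded N-cadherin counts in all 12 samples. Per exon length the mean ratio was -2.64 ± 0.16 in WT and -6.72 ± 0.27 in KO at day 3 (SD, n = 3), so *Cdh1* was the more abundant of the pair on that scale as well.

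**Figure D3:**
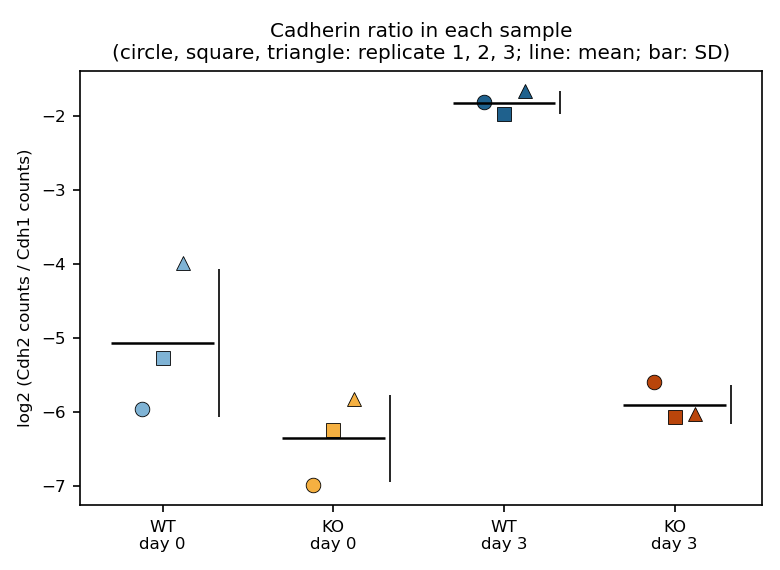
Log2 ratio of *Cdh2* counts to *Cdh1* counts in each of the 12 samples, by group, with means (lines) and SD (bars, n = 3). The WT samples of day 3 lie between -1.98 and -1.67, above the other 9 samples, which lie between -6.99 and -3.99.

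*Cdh11* encodes OB-cadherin, a mesenchymal cadherin (ENSMUSG00000031673, chr8:102632095-102785642, minus strand). It rose in WT from 1.64, 10.3 and 9.29 CPM at day 0 to 73.7, 65.5 and 86.1 CPM at day 3, a log2 fold change of 3.58 (SE 0.58, adjusted p = 0.00058 in edgeR). In KO it went the other way, from 2.97, 12.1 and 9.85 CPM to 2.50, 0.682 and 1.83 CPM. The log2 fold change in KO was -2.13 (SE 0.64, adjusted p = 0.0167 in edgeR). It was -2.91 without KO day 3 replicate 1, and it was not called without KO day 0 replicate 2 or without KO day 3 replicate 2 or 3 (adjusted p of 0.0673, 0.0755 and 0.0751 in edgeR).

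At day 3 the lowest WT sample of *Cdh11* was far above the highest KO sample, and the log2 fold change was -5.45 (SE 0.65, adjusted p = 0.000373 in edgeR). The 3 KO libraries held 50, 12 and 44 *Cdh11* counts, so the size of this fold change rests on few reads in KO. It ran from -6.34 without KO day 3 replicate 1 to -4.96 without KO day 3 replicate 2. At day 0 the genotypes overlapped, with a log2 fold change of 0.26 (SE 0.56, adjusted p = 0.788 in edgeR). Replicate 1 had the lowest *Cdh11* of its group at day 0 in both WT and KO, and it also had the lowest fibroblast marker sum in both. The interaction was -5.71 (SE 0.84, adjusted p = 0.00256 in edgeR), or -6.61 without KO day 3 replicate 1.

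*Vim* encodes vimentin, the intermediate filament protein of mesenchymal cells (ENSMUSG00000026728, chr2:13573927-13582826, plus strand). It was abundant at day 0, at 206, 332 and 407 CPM in WT and 319, 427 and 508 CPM in KO. The groups overlapped, and the log2 fold change of 0.43 was not called (SE 0.15, adjusted p = 0.0656 in edgeR), although each KO sample was above the WT sample of the same number. With a replicate block within each day the adjusted p was 0.0373 in edgeR. The fibroblast marker sum was likewise higher in each KO sample of day 0 than in the WT sample of the same number.

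At day 3 *Vim* was 155, 184 and 309 CPM in WT and 26.1, 34.3 and 30.6 CPM in KO. The groups were clearly apart, with a log2 fold change of -2.78 (SE 0.16, adjusted p = 9.98e-06 in edgeR). Over 3 days in KO, *Vim* fell by 3.76 on the log2 scale (SE 0.17, adjusted p = 2.43e-07 in edgeR). In WT the log2 fold change was -0.55 (SE 0.15, adjusted p = 0.0105 in edgeR), where the days overlapped and the call was lost without the replicate block (adjusted p = 0.117 in edgeR) and without WT day 3 replicate 2 (adjusted p = 0.0531 in edgeR). The interaction was -3.21 (SE 0.22, adjusted p = 0.000131 in edgeR). Unlike *Cdh2* and *Cdh11*, *Vim* was not highest in the WT samples of day 3. Fibroblast markers fell over the same interval, with 9 of 16 tested called lower in WT, and 12 lower and 1 higher in KO. Of all tested genes, 56.2% were called over time in WT (25.5% lower) and 56.6% in KO (27.2% lower). The part of the fibroblast markers in the fall of *Vim* was not tested. Between KO and WT at day 3, 4 of the 16 were higher and 6 lower, where 14.3% and 16.7% of all tested genes were.

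Among the transcription factors, *Snai1* encodes Snail, the zinc finger repressor that gastrulating cells use to turn down E-cadherin (ENSMUSG00000042821, chr2:167538195-167542814, plus strand). Its level was 5.07, 3.86 and 7.81 CPM in WT and 4.42, 5.56 and 5.82 CPM in KO at day 0, where the KO values lay inside the WT range. The log2 fold change at day 0 was -0.05 (SE 0.20, adjusted p = 0.897 in edgeR). At day 3 *Snai1* was 23.9, 25.3 and 28.3 CPM in WT against 2.15, 2.10 and 3.45 CPM in KO, with no overlap. This was a 10.2-fold lower level in KO, a log2 fold change of -3.36 (SE 0.21, adjusted p = 1.37e-05 in edgeR).

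*Snai1* rose in WT by 2.25 on the log2 scale (SE 0.20, adjusted p = 1.61e-05 in edgeR) and fell in KO by 1.06 (SE 0.21, adjusted p = 0.0016 in edgeR). The interaction was -3.31 (SE 0.29, adjusted p = 0.000272 in edgeR). The day 3 difference, both time changes and the interaction kept their direction and their call in all 12 fits with 1 library left out.

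*Snai2* encodes Slug, the paralogue of Snail that neural crest cells use (ENSMUSG00000022676, chr16:14705852-14709385, plus strand). It was low in all 12 samples, from 0.433 to 2.81 CPM, which are 9 to 59 reads. No comparison of *Snai2* was called, and its groups overlapped in the 4 pairwise comparisons. The highest value, 2.81 CPM, belonged to WT replicate 3 at day 3, whereas the other WT samples of that day held 0.699 and 0.433 CPM. The log2 fold change at day 3 was -0.55 (SE 0.63, adjusted p = 0.539 in edgeR) and became 0.65 without that library. Its change over time in WT was 0.01 (SE 0.63) and became -1.21 without it (adjusted p = 0.0493 in edgeR). No direction can be given for *Snai2* at this depth.

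*Zeb1* encodes a zinc finger and homeodomain factor that binds paired E-boxes (ENSMUSG00000024238, chromosome 18). It was 25.0, 26.7 and 18.8 CPM in WT and 40.4, 45.5 and 39.0 CPM in KO at day 0. These groups did not overlap, and each KO sample was above its WT counterpart, but the log2 fold change of 0.82 was not called (SE 0.33, adjusted p = 0.11 in edgeR). It was called with a replicate block within each day (adjusted p = 0.0208 in edgeR), in a fit of the 6 samples of day 0 (adjusted p = 0.000383 in edgeR), and without WT day 3 replicate 3 (adjusted p = 0.00356 in edgeR).

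At day 3 *Zeb1* was 10.3, 8.85 and 25.2 CPM in WT and 7.04, 5.23 and 5.57 CPM in KO. WT replicate 3 was far above the other WT samples. KO stood at a log2 fold change of -1.27 (SE 0.35, adjusted p = 0.0224 in edgeR), and it was -0.57 without that library (adjusted p = 0.044 in edgeR). Without KO replicate 2 or 3 of that day the adjusted p was 0.0747 and 0.12 in edgeR. *Zeb1* fell in KO by 2.81 on the log2 scale over 3 days (SE 0.36, adjusted p = 0.000106 in edgeR).

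In WT the log2 fold change of *Zeb1* over time was -0.73 (SE 0.34, adjusted p = 0.0923 in edgeR), and -1.41 without WT day 3 replicate 3 (adjusted p = 0.000211 in edgeR) or -1.03 without WT day 0 replicate 3 (adjusted p = 0.0429 in edgeR). The interaction was -2.08 (SE 0.48, adjusted p = 0.018 in edgeR), or -1.41 without WT day 3 replicate 3. It was not called without KO day 0 replicate 2, KO day 3 replicate 2 or 3, or WT day 0 replicate 3, at adjusted p-values of 0.0504 to 0.0671 in edgeR. *Zeb1* was thus lower at day 3 than at day 0 in KO, and its WT means of 23.5 ± 4.15 and 14.8 ± 9.03 CPM had overlapping samples. About 1.9% of its exon bases overlap a gene on the other strand, and the strand setting of the counting is not given in the sources used here.

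*Zeb2* encodes the related factor SIP1 (ENSMUSG00000026872, chr2:44983632-45117395, minus strand). Its profile was unlike that of *Zeb1*. It was 6.16, 12.4 and 13.0 CPM in WT and 4.81, 7.16 and 5.71 CPM in KO at day 0, overlapping and not called (log2 fold change -0.82, SE 0.39, adjusted p = 0.168 in edgeR). Each KO sample of day 0 was below the WT sample of the same number. The day 0 difference was called in a fit of the 6 samples of day 0 (-0.80, adjusted p = 0.0095 in edgeR) and without KO day 3 replicate 1 (-0.79, adjusted p = 0.0479 in edgeR). At day 3 it was 32.5, 32.8 and 55.3 CPM in WT and 17.2, 6.59 and 10.8 CPM in KO. The groups did not overlap at day 3, and the log2 fold change was -1.76 (SE 0.38, adjusted p = 0.00666 in edgeR), or -2.41 without KO replicate 1.

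Over time *Zeb2* rose by 1.92 in WT (SE 0.38, adjusted p = 0.00179 in edgeR). In KO the log2 fold change was 0.98, just short of the threshold (SE 0.39, adjusted p = 0.0544 in edgeR) and past it without the replicate block (adjusted p = 0.0422 in edgeR). KO day 3 replicate 1, the highest KO sample, set much of that value, which was 0.33 without it (adjusted p = 0.336 in edgeR). The value was called without KO day 3 replicate 2 (1.35), KO day 0 replicate 2 (1.23) or WT day 0 replicate 1 (0.92), at adjusted p-values of 0.0151, 0.0466 and 0.045 in edgeR. The interaction of -0.94 was not called (SE 0.53, adjusted p = 0.262 in edgeR), but without KO day 3 replicate 1 it was -1.62 and called (adjusted p = 0.0215 in edgeR). About 3.3% of its exon bases are shared with other annotated genes, among them the antisense gene *Zeb2os*.

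*Twist1* encodes a basic helix-loop-helix factor of mesoderm and cranial mesenchyme (ENSMUSG00000035799, chr12:33957671-33959829, plus strand). It was low in all groups, at 1.8, 2.4 and 3.22 CPM in WT and 2.35, 2.64 and 2.04 CPM in KO at day 0. The KO values fell within the WT range at that day (log2 fold change -0.05, SE 0.35, adjusted p = 0.945 in edgeR). On day 3 the values were 3.54, 4.33 and 7.18 CPM in WT and 1.65, 0.795 and 0.998 CPM in KO. The groups did not overlap at day 3, and the log2 fold change was -2.08 (SE 0.37, adjusted p = 0.0025 in edgeR).

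*Twist1* rose in WT by 1.01 (SE 0.34, adjusted p = 0.0295 in edgeR) and fell in KO by 1.03 (SE 0.37, adjusted p = 0.037 in edgeR). Both calls depended on single libraries. The first was lost without WT day 0 replicate 1 or 2 or WT day 3 replicate 2 or 3 (adjusted p between 0.057 and 0.162 in edgeR). The second was lost without KO day 0 replicate 1 or 2 or KO day 3 replicate 2 or 3 (adjusted p between 0.102 and 0.143 in edgeR). The interaction of -2.04 (SE 0.51, adjusted p = 0.0237 in edgeR) was called in 6 of the 12 fits. The libraries whose absence ended that call were KO day 0 replicate 1 or 2, KO day 3 replicate 2 or 3, WT day 0 replicate 2 and WT day 3 replicate 3, with adjusted p-values of 0.0507 to 0.0753 in edgeR.

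The 10 genes fell into different profiles when compared over the 12 samples by Pearson correlation of log2(CPM + 0.5), given as a description because the samples share their groups. *Cdh2* and *Zeb2* had a correlation of 0.93, *Cdh11* and *Snai1* 0.93, and *Cdh11* and *Twist1* 0.90. *Vim* and *Zeb1* formed another pair at 0.89. *Epcam* opposed that pair, at -0.84 with *Vim* and -0.87 with *Zeb1*. *Cdh1* and *Cdh2* had a correlation of 0.21, a value that pools comparisons of unlike direction. They moved in opposite directions over time in WT and between KO and WT at day 3. Both were lower in KO at day 0, and both rose over time in KO.

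Among all tested genes, those nearest to *Cdh2* over the 12 samples were *Wnt3*, a ligand gene of the primitive streak (0.987), *Lhx1*, a homeobox gene of the mesendoderm (0.982), and *Ndn* (0.979). *Cdh11* was nearest to *Pcdh7* (0.988), *Foxc1* (0.967) and *Pcdhgc3* (0.965), and *Snai1* to *Pcdhgc3* (0.974), *Slit2* (0.970) and *Evx1* (0.970). *Zeb2* was nearest to *Pcdh18* (0.982), *Irx3* (0.970) and *Rpgrip1l* (0.966). *Zeb1* was nearest to *Smarcd3* (0.977), *Zfp36l1* (0.977) and the neural cell adhesion gene *Ncam1* (0.974), and *Vim* to *Ap1m1* (0.980), *Abhd2* (0.978) and *Pcdh19* (0.967). *Twist1* was nearest to the integrin gene *Itgb1* (0.952), *Hykk* (0.947) and *Irx1* (0.944), and *Cdh1* to *E2f7* (0.949) and *Syt5* (0.923). *Epcam* was nearest to *Mapk13* (0.966), *Dnm1l* (0.965) and *Bicdl1* (0.965), and *Snai2* to *Csgalnact1* (0.939), *Ano1* (0.888) and *Hoxb4* (0.867).

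The genes that act upstream of EMT at the streak were followed as a list of 18, among them *T*, *Eomes*, *Mesp1*, *Wnt3*, *Fgf8* and the TGF-beta ligand and receptor genes. All 18 were tested. At day 3, 13 were lower in KO and 1 higher, where 16.7% and 14.3% of all tested genes were. Their median log2 fold change was -2.32, where all tested genes had a median of 0.00. With *Msgn1* set to a bound of 3 counts per KO library the median was the same. *Msgn1*, a paraxial mesoderm factor, had a mean of 3.51 CPM in WT and was not counted in any KO library of that day, and for *Mesp1*, a factor of cardiac mesoderm, the WT mean was 25.8 ± 4.22 CPM and the KO mean 0.0823 ± 0.0318 CPM (SD, n = 3), the latter from 1 or 2 reads per library. *T* averaged 524 ± 225 CPM in the WT samples against 6.3 ± 6.38 CPM in the KO samples (SD, n = 3), a log2 fold change of -6.71 (SE 1.13, adjusted p = 0.002 in edgeR). It ran from -5.82 without WT day 3 replicate 2 to -8.49 without KO day 3 replicate 1, and was -7.39 without WT day 3 replicate 3. *Wnt3* had means of 62.3 CPM in WT and 2.37 CPM in KO, and a log2 fold change of -4.80 (SE 0.54, adjusted p = 0.000263 in edgeR). At day 0, 4 of the 18 were lower in KO and 2 higher, where 10.9% and 9.56% of all tested genes were. *T* was at -5.49, *Fgf8* at -4.81 and *Wnt3* at -3.59 on the log2 scale. WT day 0 replicate 3 had the highest level of each, and without it they were at -3.13, -3.13 and -2.59, with adjusted p-values of 0.0639, 0.0531 and 0.011 in edgeR. *T* and *Fgf8* also lost their call without any single KO sample of day 0 (adjusted p between 0.0648 and 0.108 in edgeR). In WT, 15 rose and 2 fell over 3 days, where 30.7% of all tested genes were called higher and 25.5% lower. In KO 6 rose and 5 fell, a share of 61.1% that was near the 56.6% of all tested genes called. With at least 10 counts required in every sample, 11 of the 18 could be tested, and 7 were called at day 3.

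Of 17 other transcription factors linked to EMT, 9 were lower and 2 higher in KO at day 3, where 16.7% and 14.3% of all tested genes were. Their median log2 fold change was -0.92. Among those lower were *Gsc*, an organizer homeobox gene, at -5.43 (SE 0.80, adjusted p = 0.00097 in edgeR), the forkhead gene *Foxc1* at -3.42, and *Sox9* at -2.59. *Gsc* was at -6.51 without KO day 3 replicate 1 and -6.06 without WT day 3 replicate 3. *Sox9* was at 2.98, 3.08 and 16.9 CPM in the WT samples, and its log2 fold change was -1.79 without replicate 3 (adjusted p = 0.0109 in edgeR). *Foxc2*, also a forkhead gene, had a WT mean of 2.55 CPM and 1, 4 and 1 reads in the KO libraries. Of the 17, 7 were called without WT day 3 replicate 3, 6 without KO day 3 replicate 2 and 5 without KO day 3 replicate 3. At day 0, 4 of the 17 were lower and 2 higher, with a median of -0.15, where 10.9% and 9.56% of all tested genes were called. *Sox9* was lower in KO at day 0 too, at -2.06 (SE 0.48, adjusted p = 0.0136 in edgeR), a call lost without KO day 0 replicate 1 or 3 (adjusted p of 0.0527 and 0.0752 in edgeR), and the paired-related homeobox gene *Prrx2* was higher, at 1.91 (SE 0.28, adjusted p = 0.00168 in edgeR).

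Mesenchymal effector genes, which encode matrix, integrin, protease and contractile proteins, were lower in KO at day 3 in 12 of 22 cases and higher in none. Of all tested genes, 16.7% were called lower and 14.3% higher. The median of the 22 was -0.52. *Fn1*, the fibronectin gene, averaged 1581 ± 1045 CPM over the WT samples and 483 ± 138 CPM over the KO samples (SD, n = 3), and its log2 fold change was -1.61 (SE 0.26, adjusted p = 0.00167 in edgeR). The WT samples of day 3 held 941, 1016 and 2787 CPM of *Fn1*, with the highest value in replicate 3. The same library held most of the endothelial cadherin gene *Cdh5*, at 2.8, 2.07 and 39.4 CPM in WT replicates 1 to 3. *Cdh5* was at -3.83, and at -1.95 without WT replicate 3 (adjusted p = 0.0113 in edgeR). Its call was lost without KO day 3 replicate 2 or 3 (adjusted p of 0.0501 and 0.0943 in edgeR). *Cdh6* was at -2.49, with 1.44, 1.68 and 7.09 CPM in the WT samples, and was not called without KO day 3 replicate 3 (adjusted p = 0.0618 in edgeR). Of the 22, 8 were called without WT day 3 replicate 3, which had the largest sum of this list, 7 without KO day 3 replicate 2 and 5 without KO day 3 replicate 3. At day 0, 2 were higher and 3 lower, a share of 22.7% where 20.4% of all tested genes were called, with *Cnn1* at -1.99 and *Ncam1* at 1.39. *Ncam1* was not called without KO day 0 replicate 2 (adjusted p = 0.0507 in edgeR).

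Of 21 junction and polarity genes, 8 were higher and 2 lower in KO at day 3, where 14.3% and 16.7% of all tested genes were. The median of the 21 was 0.22. Without the replicate block 5 were higher and 2 lower at day 3, a share of 33.3% against 26.4% of all tested genes. *Scrib* (0.22) and *Pard6b* (0.40) each lost their day 3 call without KO day 0 replicate 2 or any single KO library of day 3 (adjusted p of 0.052 to 0.126 in edgeR). P-cadherin (*Cdh3*) was at 1.56 (SE 0.15, adjusted p = 0.00014 in edgeR), with a mean of 52.9 CPM in KO and 18.0 CPM in WT, while desmoplakin (*Dsp*) went the other way at -1.85 (SE 0.28, adjusted p = 0.00115 in edgeR). At day 0 *Cdh3* was lower in KO, at -0.62 (SE 0.15, adjusted p = 0.0167 in edgeR), the same order of day 0 and day 3 as *Cdh1*, and its interaction was 2.19 (SE 0.22, adjusted p = 0.000527 in edgeR). In all, 3 of the 21 were higher and 2 lower at day 0, near the 20.4% of all tested genes called. With a replicate block within each day, 3 were higher and 9 lower. The day 0 call of *Cdh3* was lost without KO day 0 replicate 2 or WT day 0 replicate 1 (adjusted p of 0.0763 and 0.0621 in edgeR).

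Of 13 epithelial regulators, 6 were higher and 1 lower in KO at day 3, where 14.3% and 16.7% of all tested genes were. The median of the 13 was 0.55. *Esrp2*, a splicing factor of epithelial isoforms, was at 1.73 (SE 0.17, adjusted p = 0.000152 in edgeR), *Klf5* at 1.2 and the Zeb-opposing factor *Ovol2* at 1.03. The call of *Ovol2* was lost without KO day 3 replicate 1 or 2 or WT day 3 replicate 1 or 2 (adjusted p between 0.05 and 0.0863 in edgeR). *Ehf* was the gene that was lower, with a WT mean of 1.54 CPM and 1, 1 and 0 reads in the KO libraries. *Grhl2*, which activates *Cdh1* in epithelia, was lower in KO at day 0 (-1.12, SE 0.18, adjusted p = 0.00265 in edgeR) and its interaction was 2.15 (SE 0.26, adjusted p = 0.00108 in edgeR). *Esrp1* was likewise lower at day 0 (-1.73, SE 0.37, adjusted p = 0.0094 in edgeR, or 0.0501 without KO day 0 replicate 3) with an interaction of 2.46 (SE 0.50, adjusted p = 0.0105 in edgeR).

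**Figure D4:**
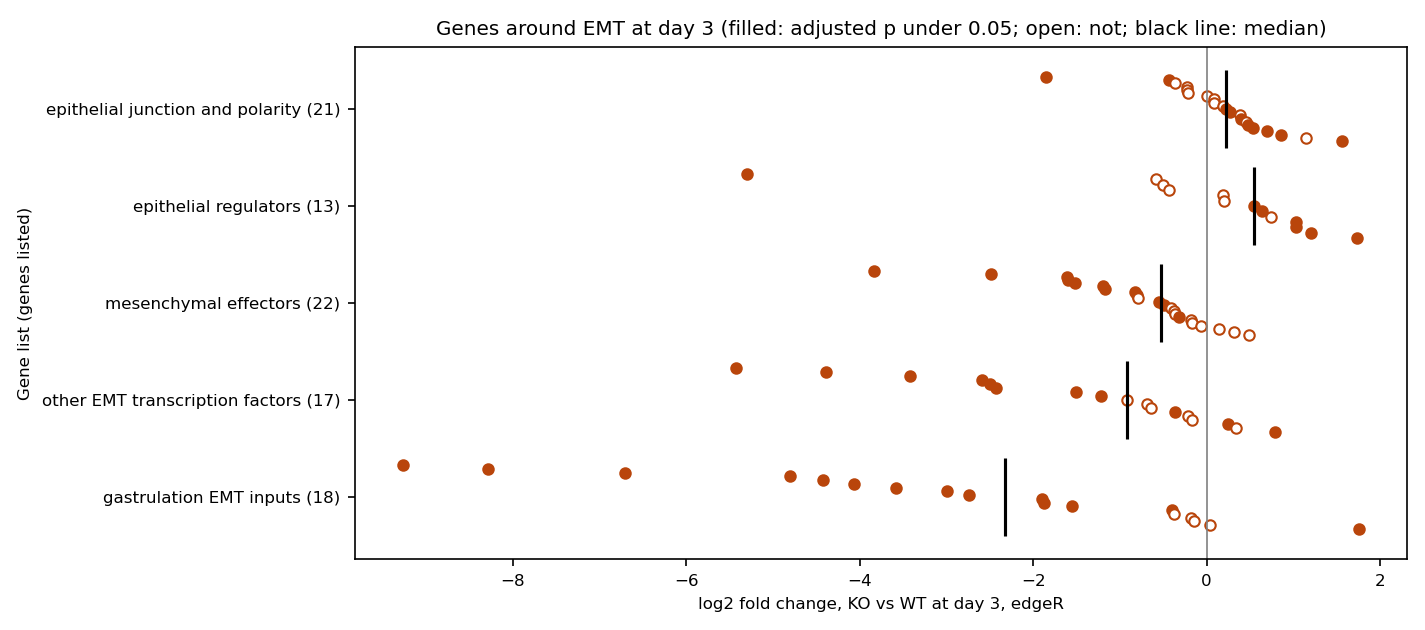
Log2 fold changes of KO against WT at day 3 for the genes of 5 lists around EMT, 1 point per gene, with filled points past an adjusted p-value of 0.05 and black lines at the medians. Medians run from -2.32 for the gastrulation inputs to 0.55 for the epithelial regulators. Filled are 12 of the 22 mesenchymal effectors, all to the left of 0, against 16.7% of all tested genes called lower.

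**Figure D5:**
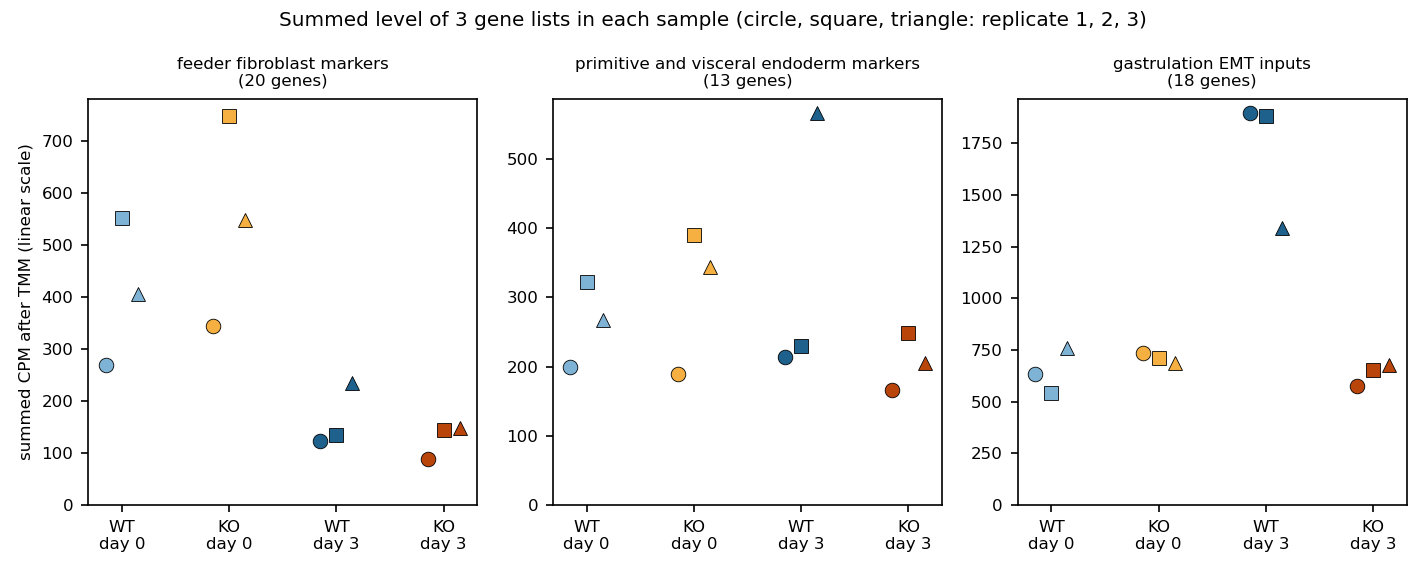
Summed CPM of the 20 feeder fibroblast markers, the 13 primitive and visceral endoderm markers and the 18 gastrulation inputs in each sample, on linear axes that start at 0. Fibroblast markers were highest at day 0, where each KO sample was above the WT sample of the same number, WT replicate 3 of day 3 held the most endoderm markers (567 CPM), and the WT samples of day 3 held the most gastrulation input RNA (1341 to 1898 CPM).

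Markers of other cell types were measured beside these results. At day 3, 2 of the 13 endoderm markers were called lower in KO and 1 higher. This share of 23.1% was below the 30.9% of all tested genes called. *Gata6* and *Pdgfra*, which both endoderm and mesoderm express, were lower in KO, at log2 fold changes of -4.62 and -4.00. The median of the 13 was -0.94, and 6 had an unadjusted p-value under 0.05 in edgeR. Of 10 tested neural ectoderm markers, 7 were lower in KO at day 0 and none higher, and 4 were higher and 1 lower at day 3. Of all tested genes, 20.4% were called at day 0 (10.9% lower) and 30.9% at day 3 (14.3% higher). The summed level of the neural markers was 302 to 392 CPM in WT and 117 to 172 CPM in KO at day 0. It was 316 to 388 CPM in WT and 482 to 533 CPM in KO at day 3. Embryonic stem cell markers summed to 636 to 1161 CPM in WT and 1130.3 to 1212 CPM in KO at day 3, with the lowest value in WT replicate 3. The part of these cell types in the levels of *Cdh1*, *Epcam* and *Cdh2* was not tested.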

How the data were processed

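Polyadenylated RNA of 12 samples (WT and *Meteor* KO, day 0 and day 3, 3 replicates each) was sequenced by the authors as single reads with a stranded mRNA kit. The sample labels and the published methods name different RNA kits and sequencer models. Per the submitters' processing notes and the study's methods, reads were trimmed with cutadapt 1.3, aligned to GRCm38 with STAR 2.4.2a and counted per gene with HTSeq 0.6.1. The deposited values are raw read counts per Ensembl gene, which the authors did not normalize. Rows that name no gene, which held 46.3% to 50.97% of the total (multiple alignments 36.52% to 44.09%), were left out. Depth was 17455927 to 23910943 counts on genes.

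Identifiers were matched to symbols, exon lengths and positions in GENCODE M21 (GRCm38). Genes above 1 CPM in at least 1 sample (15673) were tested in edgeR 4.0.16 (R 4.3.3) with TMM. The model had 4 group means plus a replicate block shared by both days, since the study's methods include a batch factor. The standard error is the log2 fold change divided by the square root of F. Alternatives were no replicate block, a replicate block within each day, DESeq2 1.42.0, limma-voom (limma 3.58.1), RLE normalization, a minimum of 10 counts in all samples, no low-count filter, only the 6 samples compared, and each sample left out in turn. The edgeR fit was tested on simulated data.

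The pairing comes from the numbers in the labels. Deviations from the group means were correlated over 12659 genes between WT and KO libraries sharing a number and a day (r 0.318 to 0.677 in 6 pairs, mean 0.518), whereas the same number on different days did not (mean -0.052 in 12 pairs). A replicate block within each day follows this pairing, whereas the block of the fit used here was shared by both days. No replicate pair agreed within sampling noise (chi-square 10.58 to 50.78 per gene).

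The 10 genes and the gene lists were chosen with earlier results of these data known. All 10 genes are named whatever their values. Of each list, at most the 4 called genes with the largest log2 fold changes per comparison are named, plus genes that explain a count. Genes with the profile nearest to each of the 10 are named by Pearson correlation, and some are not reported here. Tables were handled with Python 3.11.15 and pandas 2.3.3, and figures drawn with matplotlib 3.10.9.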

Additional observations from a re-analysis of the deposited data

Results flagged for a closer look

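For 7 of the 10 genes the difference between KO and WT was not the same at day 3 as at day 0, by the interaction term of the edgeR fit over all 15673 tested genes. The difference in log2 fold change (day 3 less day 0) was 1.08 for *Cdh1* and 0.97 for *Epcam*, both of which were lower in KO at day 0. It was -5.71 for *Cdh11*, -3.31 for *Snai1* and -2.04 for *Twist1*, whose genotypes overlapped at day 0 and were apart at day 3. It was -3.21 for *Vim* and -2.08 for *Zeb1*, whose KO means were above WT at day 0 (418 and 315 CPM for *Vim*, 41.6 and 23.5 CPM for *Zeb1*) without being called, and below WT at day 3. The interaction of *Cdh1*, *Cdh11*, *Vim* and *Snai1* was called in all 12 fits that left out 1 library, that of *Epcam* in 10, of *Zeb1* in 8 and of *Twist1* in 6.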

How the results depend on the processing

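The number of the 10 genes called at day 0 was 3, and it was 6 in a fit of only the 6 samples compared and 5 with a replicate block within each day. Both settings added *Vim* and *Zeb1* as higher in KO, and the fit of 6 samples also added *Zeb2* as lower. Over all genes, calls at day 0 numbered 3201, against 5356 and 5447 under those settings, 4846 against 7347 at day 3 with a replicate block within each day, and 2436 against 4889 for the interaction. Without the replicate block, the count was 2 at day 0, 8 at day 3, 6 over time in WT, 9 over time in KO and 7 for the interaction. Leaving out 1 library gave counts of 2 to 5 at day 0, 6 to 9 at day 3, 4 to 8 over time in WT, 6 to 9 over time in KO and 4 to 9 for the interaction.

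With every library kept, the sign changed only for *Snai2*, in comparisons where its effect was close to 0. *Snai2* at day 0 (0.00) was -0.04 with limma-voom, -0.01 without a filter and without the replicate block, and -0.02 in a fit of 6 samples and with a replicate block within each day. *Snai2* over time in WT (0.01) was -0.06 with DESeq2, -0.04 with RLE normalization, -0.23 with limma-voom and -0.27 in a fit of 6 samples. With 1 library left out, log2 fold changes at day 0 ran from -0.18 to 0.72 for *Cdh11*, -0.25 to 0.11 for *Snai1*, -0.48 to 0.40 for *Snai2* and -0.25 to 0.20 for *Twist1*. For *Snai2* they ran from -1.12 to 0.65 at day 3, -1.21 to 0.62 over time in WT and -1.11 to 0.67 for the interaction. With all libraries, the day 3 value and the interaction of *Snai2* were both -0.55, and *Cdh11* at day 0 was 0.26. Over all 10 genes and 5 comparisons, 332 of the values under settings that kept every library compared kept direction and call. Under these settings 22 gained a call, 2 lost one and 9 changed sign. In the fits with 1 library left out, 517 values kept direction and call, 17 gained a call, 44 lost one and 22 changed sign. The cause was not tested. About 9 to 59 reads of *Snai2* per library limit what can be said of it.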
